A study of Mus musculus with 2 samples.

Results

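The olfactory receptor gene clusters of the mouse genome were examined for H3K9me2 peaks in activated B cells. The members were peaks whose midpoint lay inside a cluster, a run of protein-coding Olfr genes, each within 100 kb of the next, with at least 5 genes. By this rule 575 of 32149 KO peaks (1.79%) and 547 of 31623 WT peaks (1.73%) were members, counted over the 19 autosomes and both sex chromosomes. Of 1109 coding Olfr genes, 1034 fell into 42 such clusters on 14 chromosomes. The clusters together spanned 24.6 Mb, or 0.925% of the span analysed. Each held 5 to 216 receptor genes, with a median of 10.5, and was 0.0800 to 4.82 Mb long.

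The study compared 2 CUT&Tag libraries, in which an antibody to H3K9me2 directs a transposase to marked chromatin. The KO library came from activated B cells of C57BL/6 mice labelled as a B cell knockout of Jmjd1c, which belongs to a family of JmjC histone demethylases acting on H3K9. The WT library came from wild-type activated B cells of the same strain. The Cre driver, the stimulus used for activation, the age of the mice and the number pooled are not given in the sources used here. The lists rested on 34502392 tags in KO and 33474010 tags in WT. With 1 library per genotype differences between genotypes could not be set against replicate spread, and no test was run. Each interval given is a 95% interval that covers counting error alone and treats peaks as independent.

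Olfactory receptors are G protein-coupled receptors of olfactory sensory neurons, and their genes form the largest gene family of the mouse. The coding sequence usually lies in a single exon, with noncoding 5′ exons some distance upstream. In olfactory sensory neurons the clusters are packed into heterochromatin marked by H3K9 and H4K20 methylation, and each neuron expresses a single receptor allele. Expression of the receptors in these B cells was not measured here. H3K9me2 is a mark of repressed chromatin, written mainly by Ehmt1 and Ehmt2.

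The members are peaks, and sequence at members was available only where a peak reached the window from 250 bases before to 50 after an annotated gene start in RefSeq (GRCm38.p6, the assembly behind mm10). Such windows were given for 877 of the 1034 clustered receptor genes. Of the 881 windows, 16 (1.82%) were overlapped by a KO peak and 18 (2.04%) by a WT peak, against 1.18% and 1.25% of all 32851 RefSeq windows. Only 4 windows were overlapped in both libraries, and these are shown because they are the receptor gene starts with a peak in each list. They are Olfr1062 (chr2:86423625-86423924, minus strand), Olfr1263 (chr2:90014682-90014981, plus strand), Olfr688 (chr7:105287845-105288144, plus strand) and Olfr665 (chr7:104880459-104880758, plus strand). Each is written 5′ to 3′, and capitals mark the bases covered by a peak in both libraries.
Olfr1062: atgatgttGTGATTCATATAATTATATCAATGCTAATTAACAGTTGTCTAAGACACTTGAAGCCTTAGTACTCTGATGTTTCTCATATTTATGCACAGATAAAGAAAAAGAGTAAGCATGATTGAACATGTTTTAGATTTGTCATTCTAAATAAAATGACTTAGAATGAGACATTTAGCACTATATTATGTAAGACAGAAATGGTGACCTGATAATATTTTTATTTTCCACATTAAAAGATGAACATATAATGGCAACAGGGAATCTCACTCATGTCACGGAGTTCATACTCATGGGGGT
Olfr1263: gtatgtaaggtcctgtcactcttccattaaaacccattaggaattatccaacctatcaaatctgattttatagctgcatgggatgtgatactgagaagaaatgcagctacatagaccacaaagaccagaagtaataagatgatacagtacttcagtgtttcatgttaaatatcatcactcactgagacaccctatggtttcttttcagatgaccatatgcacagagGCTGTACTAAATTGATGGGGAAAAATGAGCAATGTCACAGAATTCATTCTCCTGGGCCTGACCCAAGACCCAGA
Olfr688: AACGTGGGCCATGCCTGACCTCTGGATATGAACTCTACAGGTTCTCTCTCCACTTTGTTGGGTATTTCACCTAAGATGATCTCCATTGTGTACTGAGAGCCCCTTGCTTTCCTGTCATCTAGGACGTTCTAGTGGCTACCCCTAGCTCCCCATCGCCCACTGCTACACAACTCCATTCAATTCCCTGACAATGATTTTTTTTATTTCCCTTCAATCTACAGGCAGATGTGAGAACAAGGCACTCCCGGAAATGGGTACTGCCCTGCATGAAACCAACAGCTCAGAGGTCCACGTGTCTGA
Olfr665: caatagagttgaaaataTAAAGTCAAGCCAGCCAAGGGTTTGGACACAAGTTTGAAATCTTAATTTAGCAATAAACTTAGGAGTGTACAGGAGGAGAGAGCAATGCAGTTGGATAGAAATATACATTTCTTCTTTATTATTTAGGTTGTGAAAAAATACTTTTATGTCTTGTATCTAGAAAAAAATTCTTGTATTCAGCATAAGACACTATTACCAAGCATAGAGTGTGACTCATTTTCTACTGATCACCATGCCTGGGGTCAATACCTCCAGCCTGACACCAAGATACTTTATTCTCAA

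In Olfr1062 and Olfr665 the shared peak covered 292 and 283 of the 300 bases, and in Olfr688 all of them. In Olfr1263 it covered the last 74 bases, around the start of the coding sequence. The peaks at Olfr1062 had an authors' fold enrichment of 3.24 in KO and 2.96 in WT, and those at Olfr1263 had 3.13 and 2.70. Those at Olfr688 had 2.69 in KO and 2.63 in WT, and those at Olfr665 had 3.24 in KO and 2.79 in WT. These were ordinary peaks, as the medians over the whole lists were 3.08 in KO and 2.72 in WT.

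Many of these windows start at the coding sequence and not at a mapped transcription start. Body lengths were multiples of 3 for 78.9% of the 1034 genes, and in 87.8% of the 682 windows of such genes ATG stood right after the first 250 bases. The windows were rich in A and T, with a median of 65.3% against 47.3% over all RefSeq windows. The motif TAATTA, a core of many homeodomain sites that reads the same on both strands, was in 19.1% of receptor windows and 5.29% of all windows. It was in 2 of the 30 receptor windows with a peak in either library, among them Olfr1062. The site of the O/E (EBF) factors, TCCC and GGGA with any 2 bases between them and also the same on both strands, was in 0.568% of receptor windows, in 0.904% of all windows and in 0 of those 30.

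Olfactory receptor clusters were dense in H3K9me2 peaks in both genotypes and stood well above their surroundings. They held 23.3 peaks per Mb in KO (21.5 to 25.3, exact Poisson interval) and 22.2 in WT (20.4 to 24.2). The rest of the chromosomes held 12 peaks per Mb in KO and 11.8 in WT. The 1 Mb flanks of the clusters, 61.0 Mb in all, were poorer still, with 401 KO peaks (6.57 per Mb) and 392 WT peaks (6.42 per Mb). The density ratio of clusters to flanks was 3.55 in KO (3.12 to 4.05, exact binomial-based interval) and 3.46 in WT (3.03 to 3.95). In sequence outside all annotated genes alone the ratio was lower, 2.11 in KO and 1.98 in WT.

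The step lay close to the outermost receptor genes. From 200 to 1000 kb outside an edge the bins of 100 kb held 4.99 to 7.69 peaks per Mb in KO and 4.39 to 7.70 in WT. The bin at 100 to 200 kb held 8.17 in KO and 7.08 in WT, and the last 100 kb before the edge 9.88 and 8.62. The first 100 kb inside held 19.7 peaks per Mb in KO (16.3 to 23.6) and 18.5 in WT (15.2 to 22.3). The next 100 kb held 27.3 in KO and 27.7 in WT. The bins outside rested on 84 edges, the first inside on 60 and the next on 30, as shorter clusters dropped out. The bins thus do not compare the same clusters, and a rise inward within clusters was not tested. Bins deeper than 500 kb rested on at most 8 edges.

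**Figure D1:**
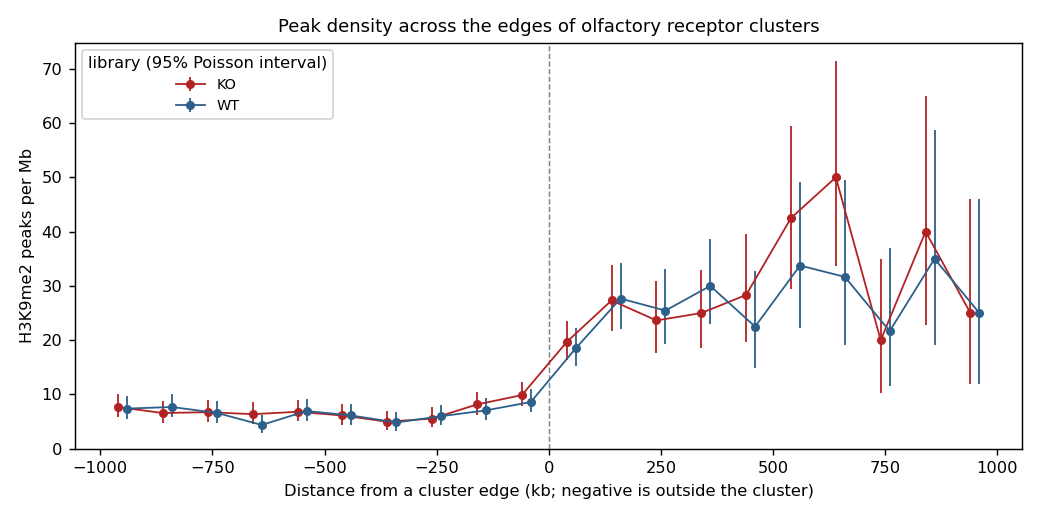
Peak density in 100 kb bins by distance from a cluster edge (x axis in kb, negative outside), in peaks per Mb, for the KO and WT libraries with 95% Poisson intervals. Both libraries step up at the edge, with 9.88 and 8.62 peaks per Mb just outside and 19.7 and 18.5 just inside. The bins outside rest on 84 edges and the first inside on 60, without the shorter clusters.

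Bins with many coding genes and no receptor cluster held few peaks on average, and receptor clusters did not follow that relation. The 18 bins of 1 Mb with at least 0.5 Mb of cluster all held 20 or more coding genes. They had a mean of 19.7 peaks in KO and 19 in WT. The 408 bins with 15 or more coding genes and no cluster had a mean of 2.85 in KO and 2.75 in WT. The 292 bins with no coding gene had 17.5 in both libraries. Other clustered gene families were not set apart in these bins, so the exception need not be particular to Olfr genes. At 2 to 5 kb from genes of Vmn1r, a pheromone receptor family, there were 16.0 peaks per Mb in KO and 19.7 in WT. Around clustered Olfr genes there were 20.7 and 20.3, and around other coding genes of up to 5 kb 5.99 and 4.53.

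Clusters differed widely from each other, from no peak to over 80 per Mb. In both libraries 15 of the 42 clusters, with 618 receptor genes, had an interval of the cluster to flank ratio wholly above 1. The cluster of Olfr24 to Olfr837 on chromosome 9 had 2 peaks in KO and 0 in WT over 0.383 Mb. It was the only one with such an interval below 1, in WT (0 against 12.7 peaks per Mb in its flanks) and not in KO (5.22 against 10.4). Among clusters of at least 0.2 Mb, the densest was Olfr525 to Olfr541 on chromosome 7 (140322701 to 140705191, 16 receptor genes), with 26 KO peaks and 25 WT peaks, or 68.0 and 65.4 per Mb. Next came Olfr665 to Olfr692 on chromosome 7, with 25 KO and 28 WT peaks (51.2 and 57.3 per Mb), and Olfr338 to Olfr368 on chromosome 2, with 49 and 54 (51.3 and 56.5 per Mb). Olfr20 to Olfr384 on chromosome 11 had 12 KO and 9 WT peaks (47.5 and 35.6 per Mb).

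The cluster of Olfr160 to Olfr986 on chromosome 9 (37711348 to 40188094, 95 genes) had the most peaks, 104 in KO and 97 in WT, or 42 and 39.2 per Mb. Its flanks had no peak in either library. The largest cluster by genes, Olfr996 to Olfr1274 on chromosome 2 (85579215 to 90401674, 216 genes), was less dense, with 93 KO and 82 WT peaks, or 19.3 and 17.0 per Mb. Olfr9 to Olfr827 on chromosome 10 (58 genes) had 41 KO and 38 WT peaks, or 33.6 and 31.1 per Mb. The 3 clusters with most peaks, Olfr160 to Olfr986, Olfr996 to Olfr1274 and Olfr543 to Olfr649 on chromosome 7, held 44.3% of the peaks of both libraries together and 36.6% of the cluster length.

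At the low end, 6 clusters with 60 receptor genes over 1.36 Mb had no peak in either library. Among those of at least 0.2 Mb they were Olfr30 to Olfr311 on chromosome 11 (21 genes), Olfr288 to Olfr279 on chromosome 15 (9 genes) and Olfr433 to Olfr419 on chromosome 1 (9 genes). The flanks of Olfr433 to Olfr419 had 14.5 peaks per Mb in both libraries, while those of the other 2 had none. Olfr129 to Olfr136 on chromosome 17 had 0 KO peaks and 1 WT peak, and Olfr165 to Olfr171 on chromosome 16 had 1 and 0. Some clusters with many genes were also poor in peaks. Olfr1275 to Olfr1318 on chromosome 2 (37 genes) had 2 KO and 5 WT peaks, and Olfr90 to Olfr761 on chromosome 17 (36 genes), which holds the class Ib MHC genes H2-M2 and H2-M3, had 3 and 4. Olfr467 to Olfr519 on chromosome 7 (42 genes) had 8 KO and 5 WT peaks.

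**Figure D2:**
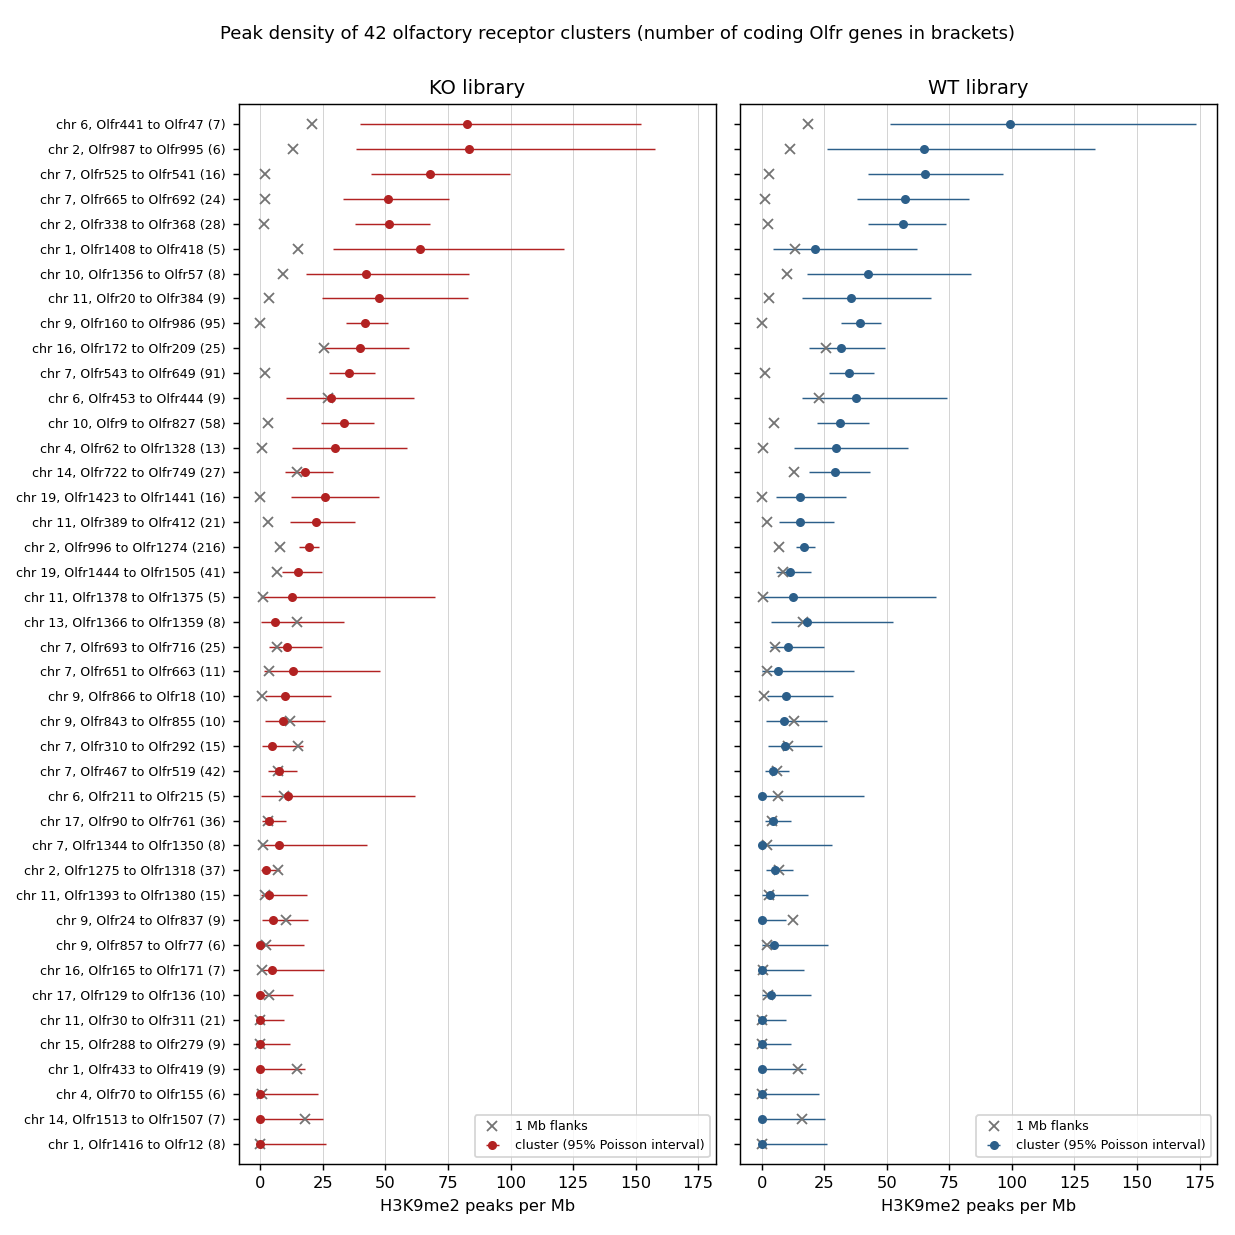
Peaks per Mb (x axis) of each of the 42 clusters, named by chromosome and outermost genes, with the KO library on the left and WT on the right; points are clusters with 95% Poisson intervals and crosses are their 1 Mb flanks. Both panels share 1 order of clusters, by peaks per Mb summed over both libraries. In 6 clusters there is no peak in either library. The highest densities are 83.2 per Mb in KO (Olfr987 to Olfr995) and 99.3 in WT (Olfr441 to Olfr47), both clusters under 0.2 Mb.

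Peak density was not tied closely to how tightly the receptor genes were packed. Across the 42 clusters, which are not replicates and differ in length, density and receptor genes per Mb had a Pearson correlation of 0.123 in both libraries and a Spearman correlation of 0.145 in KO and 0.0829 in WT. The cluster densities of the KO and WT libraries had a Pearson correlation of 0.921 and a Spearman correlation of 0.905.

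Receptors of class I, the fish-like class, lie in the mouse in a group around the beta globin locus on chromosome 7, and all other receptors are of class II. The 2 clusters within 1 Mb of the globin genes (102 receptor genes, 1.87 Mb) held 63 KO peaks and 61 WT peaks, or 33.8 and 32.7 per Mb. The other 40 clusters held 22.5 in KO and 21.3 in WT. The ratio was 1.50 in KO (1.14 to 1.95) and 1.53 in WT (1.15 to 2.0). Nearly all of these peaks were in Olfr543 to Olfr649 (102476773 to 104190205, 91 genes), with 61 in KO and 60 in WT (35.6 and 35.0 per Mb). The other cluster, Olfr651 to Olfr663, had 13.2 per Mb in KO and 6.59 in WT, below the class II values. Some class II clusters were denser than either, such as Olfr525 to Olfr541 with 68.0 and 65.4. The intervals of the ratio leave out this spread between clusters, so they do not show a difference by class. The 5 beta globin genes inside that cluster, from Hbb-bt to Hbb-y, had no peak within 2 kb in either library, a count that 5 genes cannot set apart from the 11.6% of all coding genes with one.

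The neighbouring cluster Olfr665 to Olfr692 lies just past that distance, but 22 of its 24 genes carry MOR family numbers up to 42, which mark class I. With class I taken by MOR family, chosen after the values were seen, 3 clusters of 126 genes held 37.4 peaks per Mb in KO and 37.8 in WT. The other 39 held 21.9 in KO and 20.6 in WT. Receptor genes with a peak on their body numbered 33 of 126 in KO (26.2%, 18.8 to 34.8%) and 34 in WT (27.0%, 19.5 to 35.6%) in the class I clusters. In the other clusters 97 of 908 had one in KO (10.7%, 8.75 to 12.9%) and 11.1% in WT (9.15 to 13.4%). These intervals also leave out the spread between clusters.

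Within clusters, peaks sat on the receptor genes themselves far more often than their length would give. Coding receptor gene bodies made up 8.14% of the cluster length and held 141 of 575 KO peak midpoints (24.5%, 21.1 to 28.3%, exact binomial interval) and 144 of 547 WT midpoints (26.3%, 22.7 to 30.2%). That was 70.4 peaks per Mb of gene body in KO and 71.9 in WT, against 18.8 and 17.6 per Mb outside all annotated genes. Most member peaks still lay between genes, with 406 in KO (70.6%) and 380 in WT (69.5%) outside genes, which made up 87.5% of the length. Olfr pseudogenes held 17 KO and 9 WT peaks, or 62.6 per Mb in KO (36.5 to 100) and 33.1 in WT (15.2 to 62.9).

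The contrast in density came from genes whose annotated body is up to 1.2 kb, which is about the length of the coding exon. At the 160 genes with longer bodies the ratio of body to the zone at 2 to 5 kb was 1.25 in KO (0.694 to 2.29) and 1.56 in WT (0.833 to 3.03), with intervals that include 1. By gene the longer ones did not lack peaks, with a body peak at 13.8% in KO and 15% in WT. At the shorter ones it was 12.4% and 12.7%. The position of the coding exon within the longer bodies was not determined, so peak density on that exon was not measured there. The 874 genes with a body up to 1.2 kb held 108 KO peaks (128 per Mb, 105 to 155) and 111 WT peaks (132 per Mb, 108 to 159). The first 1 kb on both sides of their bodies held 10 peaks in each library, or 5.99 per Mb, and the zone at 2 to 5 kb held 94 in each, or 20.01 per Mb. Gene bodies were thus 6.40-fold denser than the zone at 2 to 5 kb in KO (4.81 to 8.54) and 6.58-fold in WT (4.96 to 8.76). The adjoining 1 kb was at 0.300 of that zone in both (0.139 to 0.576).

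The peaks lay close to the middle of the gene, more often on its upstream side. Of the midpoints on these short bodies, 96 of 108 in KO (88.9%) and 98 of 111 in WT (88.3%) were within 250 bp of the middle of the gene. The whole peak fitted inside the body for 92 KO peaks (85.2%) and 95 WT peaks (85.6%). At the 739 short genes with a known strand, the 500 bp upstream of the middle held 56 KO and 62 WT midpoints. The 500 bp downstream of it held 39 and 32. The poor zone beside the genes was also there at genes without a peak on their body. Within 1 kb of the 904 receptor genes with no body peak in KO there were 5.82 peaks per Mb, and 5.27 at the 899 such genes in WT, against 19.4 and 18.4 per Mb at 2 to 5 kb.

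**Figure D3:**
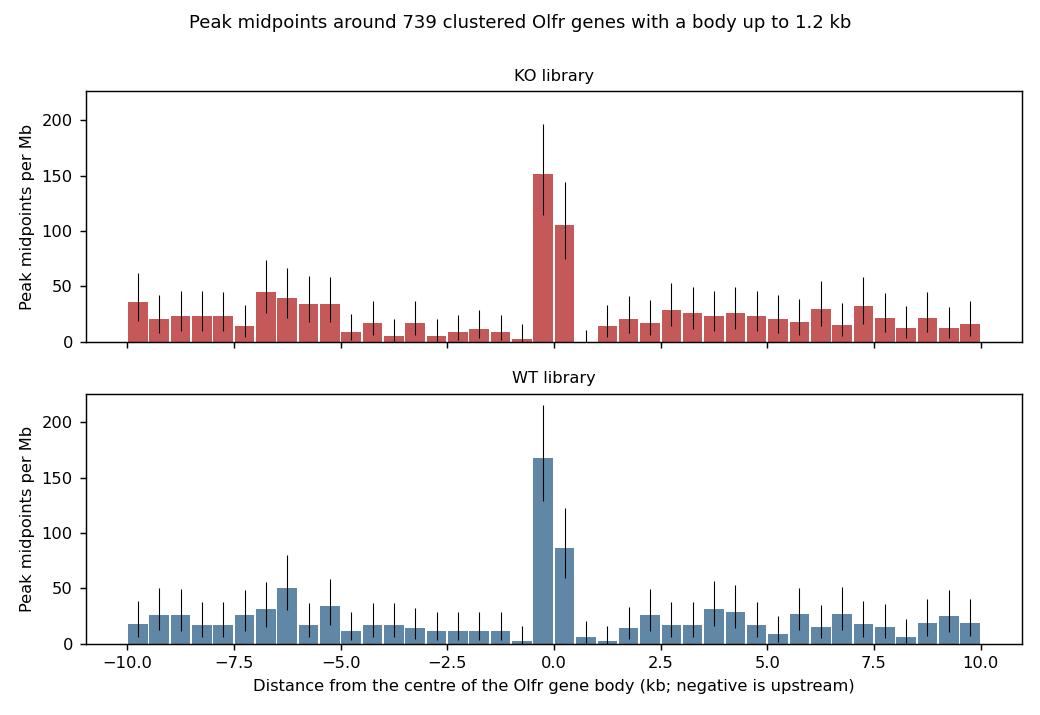
Peak midpoints per Mb (y axis) in 500 bp bins around the centre of 739 clustered receptor genes with a body up to 1.2 kb and a known strand (x axis in kb, negative upstream), KO above and WT below, with 95% Poisson intervals; other receptor gene bodies are left out and a peak near several genes counts for each. The 2 bins over the body reach 152 and 106 in KO and 168 and 86.7 in WT, while the bins beside them hold 0 to 2 peaks.

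Upstream and downstream sides differed, with intervals for the ratio that reached 1 in WT. For the 877 genes with a known strand, the 5 kb upstream of the body held 54 KO and 54 WT peaks, or 12.8 per Mb in both. The 5 kb downstream held 77 in KO and 68 in WT, or 19.3 and 17.1 per Mb. The upstream to downstream ratio was 0.665 in KO (0.460 to 0.953) and 0.753 in WT (0.517 to 1.09). At 5 to 10 kb the order was the other way round, with 28.5 per Mb upstream and 19.3 downstream in KO, a ratio of 1.48 (1.09 to 2.01), and 24.0 and 17.4 in WT, a ratio of 1.38 (0.997 to 1.92). These distance ranges were chosen after the values were seen.

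Gene bodies were denser than the rest of the cluster in 21 of the 34 clusters with a KO peak and in 22 of the 32 with a WT peak, and the other clusters had no peak on a body. Olfr987 to Olfr995 on chromosome 2 had 9 KO and 7 WT peaks, of which 0 and 1 were on bodies. Bodies were denser than the rest of the cluster in 14 of 14 clusters with at least 10 KO peaks and in 11 of 11 with at least 10 WT peaks. In Olfr160 to Olfr986, bodies held 19 KO peaks (116 per Mb) and 21 WT peaks (128 per Mb), against 36.8 and 32.9 per Mb in the rest. In Olfr996 to Olfr1274 they held 15 in each (42.7 per Mb), against 17.4 in KO and 15 in WT.

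In all, 168 of the 1034 clustered receptor genes (16.2%) had a KO peak on the body or within 2 kb, and 169 (16.3%) a WT peak. Over all 21774 coding genes the shares were 9.76% in KO and 9.52% in WT, although receptor genes are shorter than most. On the body alone, 12.6% had a peak in KO (10.6 to 14.7%) and 13.1% in WT (11.1 to 15.3%). Of 411 other coding genes with a body of 0.7 to 1.2 kb, 2.43% had a peak in each library (1.17 to 4.43%). The 229 genes of Vmn1r, a pheromone receptor family with a like single coding exon, had 2.62% in KO (0.967 to 5.62%) and 1.31% in WT (0.271 to 3.78%). These comparison sets were chosen after the receptor values were seen.

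Body density also exceeded the zone at 2 to 5 kb at the other short genes, by 2.98-fold in KO (1.24 to 6.73) and 6.29-fold in WT (2.30 to 17.5), on 10 body peaks in each. It did not at Vmn1r genes, with 1.05 in KO (0.349 to 2.68) and 0.429 in WT (0.0833 to 1.39). At receptor pseudogenes in the clusters the ratio was 2.13 in KO (1.13 to 3.85) and 1.56 in WT (0.648 to 3.38). Receptor pseudogenes, 263 in the clusters, had a body peak at 6.46% in KO (3.81 to 10.1%) and 3.42% in WT (1.58 to 6.40%). The 75 coding receptor genes outside the 42 clusters had 3 in each library (4%, 0.833 to 11.2%).

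**Figure D4:**
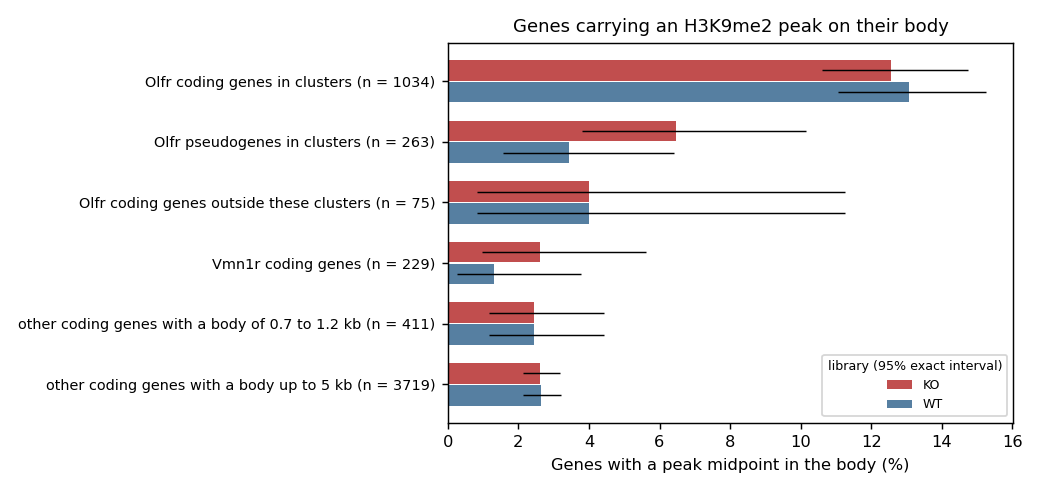
Share of genes (x axis, percent) with a peak midpoint in the gene body for 6 gene sets, KO above WT, with 95% exact binomial intervals. Clustered receptor genes stand at 12.6% in KO and 13.1% in WT, and other short coding genes at 2.43% in both.

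Counted on the body or within 2 kb, the 2 receptor genes with the most peaks had long annotated bodies. Some of the next, such as Olfr1502 (951 bp) and Olfr609 (960 bp), had short ones. Olfr183 on chromosome 16 (58929418 to 59000616, 71199 bp) had 6 KO and 4 WT peaks, and Olfr687 on chromosome 7 (105227717 to 105276461, 48745 bp) had 4 and 3. Counts of 2 in each library were found at Olfr1502 on chromosome 19 and at Olfr609, Olfr613 and Olfr536 on chromosome 7, as well as at Olfr365 on chromosome 2. Olfr963 on chromosome 9 and Olfr390 on chromosome 11 had 1 KO and 2 WT peaks, and Olfr679 on chromosome 7 had 2 and 1. Reads from like copies can be placed on the wrong gene, so these counts are uncertain for any single gene.

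Of 34 other coding genes inside the clusters, 7 had a peak on the body or within 2 kb in either library (20.6%, 8.70 to 37.9%), an interval that includes the 11.6% of all coding genes. Vwa5a and AW551984, both in Olfr160 to Olfr986 on chromosome 9, had 2 in each, and the others had 1 or none per library. Of 20 genes that act in olfactory signalling, receptor choice or the H3K9 pathway, among them Omp, Adcy3, Cnga2, Lhx2, Ebf1 and Kdm1a, 1 had a peak in either library (5%, 0.127 to 24.9%), which does not differ from the 11.6% of all coding genes beyond its interval. It was Ano2, a calcium-activated chloride channel gene, with 8 KO and 7 WT peaks.

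Member peaks were ordinary in size. Their median width was 376 bp in KO and 484 bp in WT, against 376 and 486 bp over the whole lists. The caller's fragment length d was 189 bp for KO and 292 bp for WT, so widths cannot be compared between libraries. Median pileup, the authors' coverage of extended tags, was 17.5 in KO and 23.9 in WT, against 19.1 and 25.3 over the lists. Median fold enrichment was 3.18 in KO and 2.77 in WT, against 3.08 and 2.72. No member reached a pileup of 100, and few peaks of the whole lists did, 115 in KO (0.358%) and 135 in WT (0.427%). The strongest member by fold enrichment was the same site in both libraries, chr10:129735347-129735675 in KO (9.67-fold) and chr10:129735244-129735778 in WT (6.85-fold), about 2 kb from Olfr806. The next was also shared, on chromosome 9 some 10 kb from Olfr878, at 7.15-fold in KO and 5.62-fold in WT.

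The KO and WT libraries had about the same number of peaks in the clusters. The KO to WT ratio was 1.05 (0.933 to 1.18), against 1.02 over the whole lists and 1.02 in the flanks (0.888 to 1.18). There were more KO than WT peaks in 18 clusters, fewer in 11 and equal numbers in 13. The interval of the ratio excluded 1 in 0 of the clusters that had a peak. The largest differences towards more KO peaks were at Olfr996 to Olfr1274 (93 KO and 82 WT peaks), Olfr160 to Olfr986 (104 and 97) and Olfr1408 to Olfr418 on chromosome 1 (9 and 3, ratio 3, 0.749 to 17.2). Those towards fewer KO peaks were at Olfr722 to Olfr749 on chromosome 14 (15 KO and 25 WT peaks, ratio 0.60, 0.294 to 1.18), Olfr338 to Olfr368 (49 and 54) and Olfr1275 to Olfr1318 (2 and 5). At a q of 1e-05 or lower the clusters held 39 KO and 69 WT peaks, a ratio of 0.565 (0.372 to 0.849), and the whole lists gave 0.633 at that q. The q-values depend on d, whose part in this was not tested.

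Of the member peaks, 284 in KO (49.4%, 45.2 to 53.6%) and 283 in WT (51.7%, 47.5 to 56.0%) were overlapped by at least 1 bp by a peak of the other library. Over the whole lists these shares were 45.9% in KO and 46.4% in WT. With peaks outside the clusters weighted to the same deciles of q, they were 46% and 46.5%, below the interval of the members in WT and inside it in KO. Counted as sites, there were 838, of which 283 were in both libraries, 291 in KO only and 264 in WT only.

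The overlapped share was higher on gene bodies than elsewhere, with intervals that overlapped in WT and not in KO. Of peaks on receptor gene bodies, 85 of 141 in KO (60.3%, 51.7 to 68.4%) and 85 of 144 in WT (59.0%, 50.5 to 67.1%) were overlapped in the other library. Elsewhere in the clusters it was 199 of 434 in KO (45.9%, 41.1 to 50.7%) and 198 of 403 in WT (49.1%, 44.1 to 54.1%). Peaks were also denser on bodies, with 70.4 per Mb in KO and 71.9 in WT, against 18.8 and 17.6 outside genes. Overlap from density alone would be more frequent on bodies, and its part in the difference was not tested. By gene, 107 receptor genes had a peak on the body or within 2 kb in both libraries, 61 in KO only and 62 in WT only. Over all coding genes these counts were 1674, 452 and 399, a larger part in both. At other coding genes of up to 5 kb they were 97, 70 and 61, closer to the receptor genes.

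**Figure D5:**
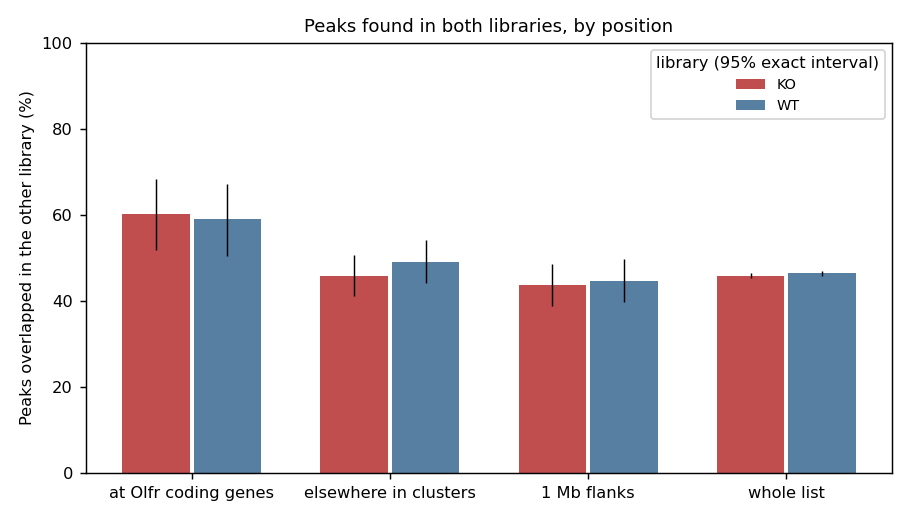
Share of peaks (y axis, percent) overlapped by at least 1 bp in the other library, for peaks on receptor gene bodies, elsewhere in clusters, in the 1 Mb flanks and in the whole list, KO left of WT, with 95% exact binomial intervals. The shares are 60.3% and 59.0% on gene bodies and 45.9% and 46.4% over the whole lists.

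Some receptor genes have near-identical copies, so reads can be placed on the wrong copy. How such reads were treated is not given in the sources used here. Likeness was measured on the windows at gene starts, as identity by edit distance to the most similar other receptor window. Of 516 genes with an identity under 60%, 15.7% had a KO peak on the body or within 2 kb (12.7 to 19.1%) and 14.7% a WT peak (11.8 to 18.1%). Of 91 genes at 80 to 90%, 23.1% had a KO peak (14.9 to 33.1%) and 25.3% a WT peak (16.7 to 35.5%). Of 55 genes at 90% or more, 9.09% had a KO peak (3.02 to 19.95%) and 16.4% a WT peak (7.77 to 28.8%). The genes under 60% carried peaks at about the share of all clustered receptor genes. They were 516 of the 877 genes with a window, so a like share says little. The window lies mostly before the gene start, so its identity does not show whether the coding exon has a close copy. The part of misplaced reads in the density on coding exons was not tested.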

How the data were processed

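The data were 2 lists of H3K9me2 CUT&Tag peaks, 1 per genotype. The authors ran MACS2 2.2.7.1 on each library, per the file headers, as a broad caller at q and broad cutoffs of 0.01, with all duplicate tags kept, no control library and a local background of 10000 bp. Total tags were 34502392 in KO and 33474010 in WT, which sets the precision of each list. The submitters' processing notes name Bowtie2 2.4.2 and the mm10 build, without settings. Picard is also among the tools they name. That MACS2 kept all duplicate tags thus does not show whether duplicates were removed before it. Per the file headers, the deposited pileup is a coverage signal of tags extended to d, the fold enrichment is a ratio to the local background, and q-values are given as −log10. All were used within a list only, apart from the shared cutoffs of q and pileup. A broad local background can hide domains wider than itself, and no control was there to take out sites of high background.

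Genes were placed by RefSeq on GRCm38.p6 (49595 genes; 348 listed after a break in the order of starts, on scaffolds, were left out). A peak was assigned by its midpoint. Flanks reached 1 Mb on each side, without other clusters and within the outermost gene or peak. Densities carry exact Poisson, shares exact Clopper-Pearson and ratios exact binomial-based 95% intervals, computed with Python 3.11.15 and SciPy 1.17.1 and checked on simulated peak lists. Clusters named were the 5 densest and 5 sparsest of at least 0.2 Mb, the 5 with most genes and the 3 largest differences in each direction; genes named were the 10 with most peaks and those with a shared peak at the start window; the 5 strongest peaks per list were ranked. Other clusters and genes were named after their values were seen. Protein identity, planned for near-identical copies, was replaced by identity of start windows. The members and lists were chosen with earlier results of these data known. Alternatives were other cutoffs of q, pileup, gene spacing, gene number, flank, margin and overlap, any overlap in place of midpoints, merged peaks, widened KO peaks, autosomes only and the leading cluster left out.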

Additional observations from a re-analysis of the deposited data

How the results depend on the processing

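Of 115 values under 19 alternatives, 92 stayed within the interval of the value reported, among them values that could not move, as given below. No ratio of clusters to flanks came down to 1. At a q of 1e-05 or lower, densities were 1.58 peaks per Mb in KO and 2.80 in WT, cluster to flank ratios 4.39 and 3.98 and the KO to WT ratio 0.565; the WT share at genes was 20.3% and the overlapped shares were 38.5% in KO and 21.7% in WT, on 39 and 69 peaks. With genes joined within 50 kb, the KO ratio to flanks was 3.07 and the WT density 24.3 per Mb. Flanks of 2 Mb gave a WT ratio of 3.01, and sequence outside annotated genes 2.11 in KO and 1.98 in WT. Without the cluster of most peaks, Olfr160 to Olfr986, densities were 21.3 per Mb in KO and 20.3 in WT, and with peaks within 5 kb merged 20.9 and 19.4. With 2 kb added to gene bodies, the share at genes was 31.8% in KO and 33.1% in WT, and with 5 kb 51.3% and 53.2%. A reciprocal overlap of 50% gave overlapped shares of 32.4% in KO and 34% in WT. Class I by MOR family, chosen after seeing the data, gave ratios of 1.71 in KO and 1.84 in WT. The wider margins and stricter overlap act by construction. The q cutoff and the merging of peaks also lower counts by construction. The q cutoff was applied to both lists, so overlap was sought only among the 2603 KO and 4110 WT peaks that passed it. The overlapped shares at that q thus do not show how well strong peaks recur in the full list of the other library. For the other changes the cause was not tested. No cluster lay on a sex chromosome, so the autosomes gave the same values. No member reached the pileup cutoff, and leaving out peaks that did changed only the ratios to flanks. Widened KO peaks keep their midpoints, so only the overlapped shares could change. Values fixed in these ways are counted in the 92 and do not test the results. No paired analysis was possible because each genotype has 1 library. Where a peak is missing, the signal did not pass the authors' cutoff at this depth.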
